A study of Mus musculus with 14 samples.

Results

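The metalloproteinase genes of the MMP (matrix metalloproteinase), ADAM (a disintegrin and metalloproteinase) and ADAMTS (ADAM with thrombospondin motifs) families were examined in cultured mouse microglia that lack or carry TIMP2, a secreted tissue inhibitor of metalloproteinases. Members were all protein-coding genes with a symbol of the 3 families and at least 10 counts summed over the 14 libraries, apart from Mmp2 and Mmp14, which were left out by name. Of 74 such symbols, 56 genes were members, among 49315 genes of the table, with 17 MMP, 20 ADAM and 19 ADAMTS genes. A further 16 genes fell below the minimum, 4 of them with no count in any library. Just inside the minimum was Adam30 with 13 counts, and just outside it was Adam28 with 8.

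The cells were primary forebrain microglia of C57BL/6 pups aged P6 to P7, with 7 libraries from global TIMP2 knockout (KO) and 7 from wild-type (WT) animals, and the loss of TIMP2 was thus not limited to microglia. Each library came from a pool of 5 pups of both sexes. The cells had been selected with CD11b microbeads and kept on coated plates before RNA was taken, and poly(A) libraries were sequenced as paired reads. The genotypes share strain, age, pooling and culture and differ by the KO allele.

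Metalloproteinases of these families depend on a zinc ion in the active site. MMPs are made as inactive proenzymes and cut collagens, proteoglycans and other matrix proteins once activated. ADAM proteinases sit in the membrane and release the outer parts of surface proteins such as TNF, Notch and the amyloid precursor protein, while ADAMTS enzymes are secreted and cut proteoglycans such as aggrecan and versican or process procollagen. In the brain, microglia use ADAM sheddases to release cytokines and receptors, and the TIMPs differ in which of these enzymes they inhibit.

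Between 38875344 and 48070236 reads were counted per library. Timp2 itself was at 122 ± 3.14 CPM (counts scaled to library size, with TMM factors) in KO and 463 ± 36.8 CPM in WT (SD, n = 7 each), with every KO library below every WT library (adjusted p = 1.53e-12 in edgeR's quasi-likelihood test). All 12 microglia markers were found at a mean over 1 CPM, with Csf1r at 2675 CPM, while Tmem119 and Siglech, which mark microglia in tissue, were at only 4.53 and 4.26 CPM. The summed level of 8 endothelial markers set the libraries numbered 1 to 4 (44.5 to 48.2 CPM in KO, 35.8 to 43.7 in WT) apart from those numbered 5 to 7 (61.9 to 65.8 in KO, 53.2 to 56.6 in WT), and the labels give no batch. Of these endothelial markers, Flt1 and Kdr had the highest means, 27.4 and 16.2 CPM. Cldn5, Tek, Ocln and Esam were at only 0.463, 0.194, 0.594 and 0.220 CPM. Whether the library sets differed in endothelial cells was not tested. Transcripts of other cell types were present at levels that differed between libraries, and they are given beside the genes they moved with. In such bulk RNA, fewer cells of a type and less RNA per cell cannot be told apart.

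Levels of different genes were compared per length, as CPM per kilobase of exon. In WT, 6 genes held 90.1% ± 0.732 (SD, n = 7) of the summed level of all members, and in KO they held 89.8% ± 0.853 (SD, n = 7). Adam8, a sheddase typical of myeloid cells, led with 232 ± 14.0 CPM per kb in WT and 213 ± 29.0 in KO. It was followed in WT by Adam9 with 80.02 ± 5.06, Adam10 with 69.9 ± 2.33, Mmp12 with 54.9 ± 15.9, Adam15 with 44.3 ± 2.82 and Adam17 with 33.6 ± 1.48 CPM per kb. The ADAM members took 82.0% ± 3.09 of the summed level in WT and 81.4% ± 4.68 in KO, the MMPs 12.6% ± 2.86 and 13.0% ± 4.40, and the ADAMTS genes 5.43% ± 0.342 and 5.58% ± 0.322 (SD, n = 7). Mmp2 and Mmp14, left out by name, are not part of these shares.

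The next in order were Adamts1, an aggrecan- and versican-cutting enzyme, with 18.5 ± 2.15 CPM per kb in WT, Adamts10, known for its link to fibrillin microfibrils, with 11.0 ± 0.760, the collagenase Mmp13 with 7.99 ± 1.60 and Adam33 with 3.76 ± 0.985. The WT ranges of neighbours in this order did not overlap from Adam8 to Adam10, from Adam15 to Adamts10 or between Adamts10 and Mmp13. They overlapped between Adam33 and Mmp19, which did not differ beyond their spread, with Adam33 the higher in 3 of 7 WT libraries. They also overlapped between Adam10 and Mmp12 and between Mmp12 and Adam15, each pair being in this order in 6 of 7 WT libraries, and between Mmp13 and Adam33, where Mmp13 was the higher in all 7. The order depended on the length used, since with the longest transcript in place of all exons Mmp12 came second at 88.9 CPM per kb in WT, above Adam9 at 81.4, and Adamts10 at 22.0 came above Adamts1 at 20.1. Adam15 and Adam17 were then at 69.5 and 53.7 CPM per kb. Above 1 CPM per kb in WT were 13 of the 56 members, and 21 lay below 0.1. The neural ADAMs that lack protease activity lay between 0.116 and 0.404 CPM per kb, the membrane-type MMPs between 0.0716 and 0.672, and the ADAMs known from the reproductive tract between 0.00453 and 0.644.

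**Figure D1:**
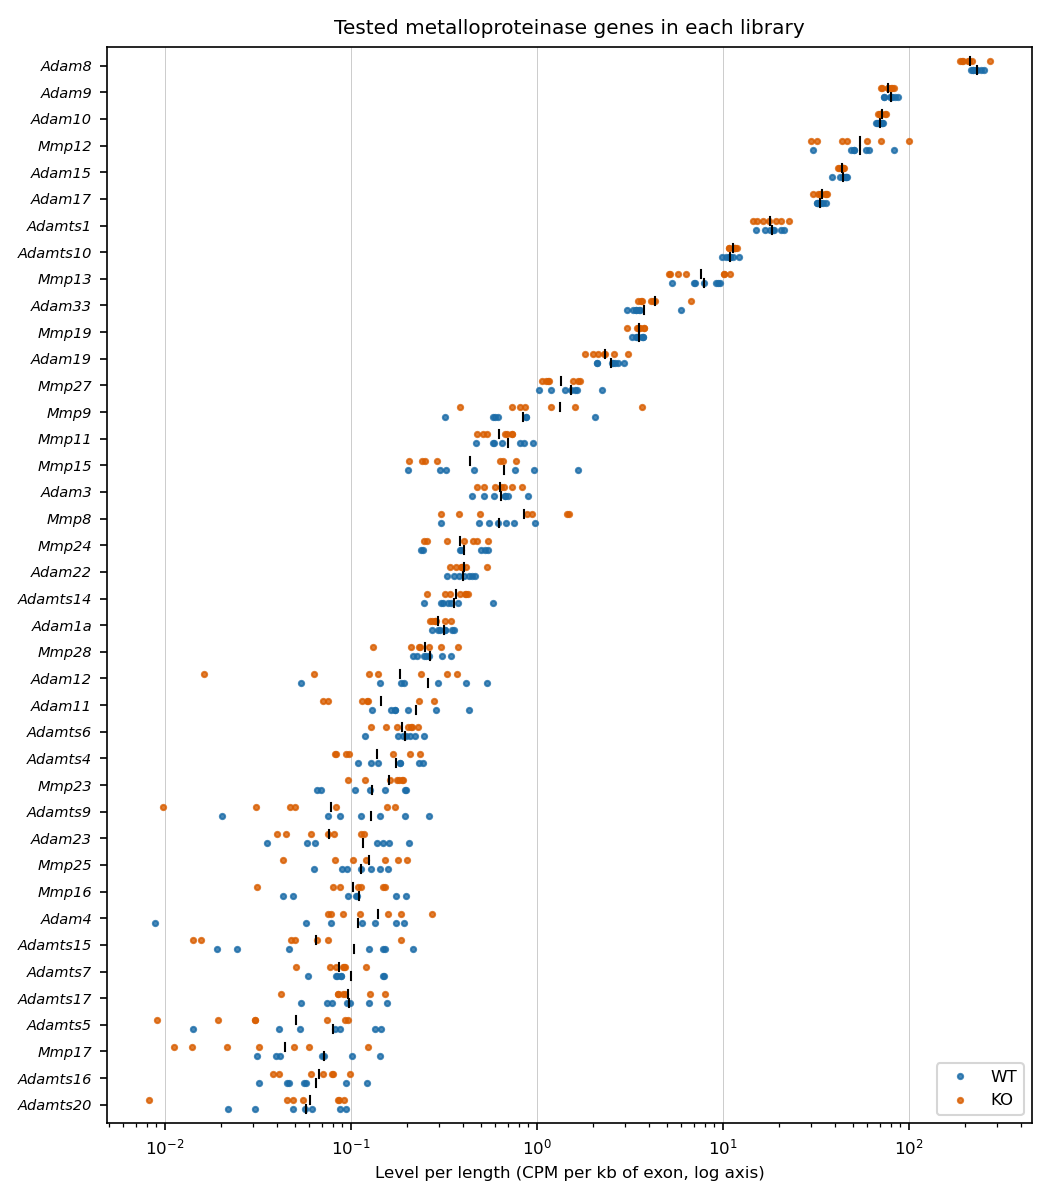
Level per length (CPM per kb of exon, log axis) of the 40 tested members, with 1 point per library and a black tick at the mean of the 7 libraries of each genotype (WT blue, KO orange). Adam8 lies highest at 232 CPM per kb in WT, the points of Adam10, Adam15 and Adam17 lie close together, and those of Mmp12, Mmp9 and many low genes are spread.

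The sheddases Adam10, Adam17, Adam15 and Adam9 had the smallest ratios of the highest to the lowest library among the tested members. Adam10, which releases Notch and makes the first cut in amyloid precursor protein outside the amyloid pathway, was at 338 CPM at the lowest, 346 at the median and 371 at the highest in KO, and at 328, 345 and 357 CPM in WT. Its highest library was 1.13 times its lowest. Adam17, the TNF-converting enzyme, was at 219, 242 and 260 CPM in KO and at 229, 239 and 258 CPM in WT. The WT range of Adam17 lay within its KO range, and that of Adam10 overlapped the lower part of its KO range. The 95% interval of the fold change, KO over WT, ran from 0.981 to 1.07 for Adam10 and from 0.955 to 1.08 for Adam17.

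Adam9 and Adam15, sheddases with partly shared targets, were as steady. Adam9 was at 293, 319 and 343 CPM in KO and at 302, 329 and 360 CPM in WT (lowest, median and highest). Adam15 was at 256, 273 and 278 CPM in KO and at 237, 279 and 285 CPM in WT. Their fold changes, KO over WT, had 95% intervals from 0.905 to 1.04 for Adam9 and from 0.934 to 1.05 for Adam15. Of the exon bases of Adam15, 20.6% lie under an antisense gene, and the strand setting of the counting was not given in the sources used here, so its level is less certain.

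Adam8 was at 875, 963 and 1270 CPM in KO and at 1003, 1073 and 1180 CPM in WT. Of the 7 KO libraries, 5 lay below all WT libraries, 1 lay within the WT range and KO replicate 7 lay above all WT libraries. Its log2 fold change was −0.13 (SE 0.0724, adjusted p = 0.943 in edgeR; two-sided exact permutation test of the log2 CPM, p = 0.103). In the libraries numbered 1 to 4, the mean log2 CPM of Adam8 differed by −0.25 between KO and WT, and by 0.01 in those numbered 5 to 7. Without KO replicate 7 the log2 fold change was −0.20 (SE 0.0455, adjusted p = 0.821 in edgeR).

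No member passed the test between KO and WT. Of the 40 members with enough counts for testing, edgeR called 0 at an adjusted p below 0.05, with p-values adjusted over all 15700 tested genes, of which 0.0191% passed. At an unadjusted p under 0.05 it called 0 of the 40, against 3.37% of all genes, and DESeq2 likewise gave 0 at either threshold. An exact permutation test of each member's log2 CPM gave no p under 0.05 either, and its lowest was 0.0804. The KO and WT ranges overlapped for all 40, and 0.0828% of all genes had ranges that did not. The smallest adjusted p of a member was 0.943.

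Of the 40 tested members 26 (65.0%) had a lower mean in KO, against 49.2% of all genes, with a median log2 fold change of −0.05, against 0.0016 over all genes. With the astrocyte marker level as a covariate, a fit chosen after seeing the data, the split turned to 25 higher and 15 lower with a median of 0.02. In that fit, 49.2% of all genes were lower, with a median of 0.0013. The astrocyte level itself had the lower mean in KO, and the members had a median r of 0.427 with it. The turn is therefore not a separate result. The values by family were alike, with 9 of 14 tested MMPs, 9 of 14 ADAMs and 8 of 12 ADAMTS genes lower in KO. The 95% interval lay inside ±0.5 on the log2 scale, a 1.41-fold change either way, for 16 of the 40 members. The half-width of the interval went from 0.06 on the log2 scale for the steadiest gene to 1.26 for the most variable, so the low and variable members would have needed a large change to be seen.

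**Figure D2:**
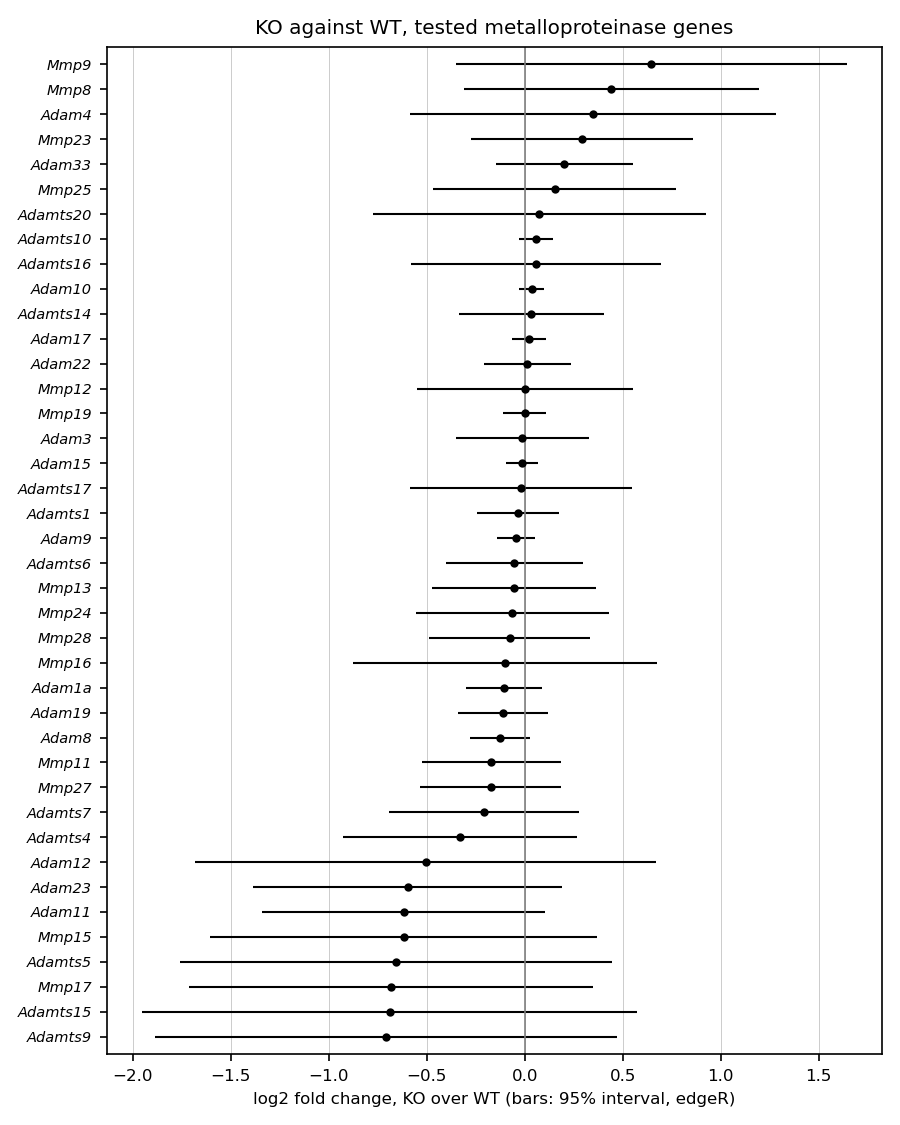
log2 fold change, KO over WT, of the 40 tested members, ordered by size, with 95% intervals from edgeR (7 libraries per genotype). Every interval crosses 0, the intervals of Adam10, Adam17 and Adam15 are narrow, and those of Adamts15, Adamts9 and Adam12 are wide.

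The smallest p of a member was that of Adam11, which belongs to the neural ADAMs without protease activity and lies on chromosome 11 of GRCm38 from 102761439 to 102780262, 15.5 Mb from Timp2, as the only tested member within 20 Mb of it. It was at 0.401, 0.691 and 1.58 CPM in KO and at 0.738, 0.988 and 2.45 CPM in WT. The ranges overlapped, with KO replicates 1 and 2 above most WT libraries and the other KO libraries below all WT libraries. Adam11 had a log2 fold change of −0.62 (SE 0.338, adjusted p = 0.943 in edgeR; exact permutation p = 0.0804). It was −0.37 without WT replicate 2 and −0.85 without KO replicate 1.

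Mmp12, the macrophage elastase, was the one abundant member with a wide spread. It was at 217, 340 and 730 CPM in KO and at 221, 369 and 602 CPM in WT, so its highest library was 3.36 times its lowest and both genotypes covered nearly the same range. KO replicate 1 and WT replicate 1 were the highest of their groups. Its log2 fold change was 0.00078 (SE 0.259, 95% interval from −0.55 to 0.55). Mmp13, which cuts fibrillar collagen, was at 13.8, 16.9 and 29.1 CPM in KO and at 14.3, 21.3 and 26.0 CPM in WT, with a log2 fold change of −0.06 (SE 0.196).

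Mmp12 and Mmp13 rose and fell together over the 14 libraries, with r = 0.85 (permutation p = 4e-04 over 100000 permutations within genotype, adjusted p = 0.00096 over the 12 relations chosen after seeing the data) and Spearman's rho = 0.873 (permutation p = 0.00057, adjusted p = 0.00213). The r was 0.839 in KO and 0.879 in WT, and 0.861 without the 2 libraries farthest from the median of Mmp13. Both genes were lower where the summed level of the 12 microglia markers was higher, with r = −0.83 for Mmp12 (rho = −0.873, both permutation p = 0.00015, adjusted p = 0.00076 and 0.0009) and r = −0.769 for Mmp13 (rho = −0.789, permutation p = 0.00019 and 0.00071, adjusted p = 0.00076 and 0.00213). Without the 2 libraries farthest from the median of the marker level, these r were −0.694 and −0.807. The microglia marker level ranged from 10549 to 13477 CPM, and its part in the levels of Mmp12 and Mmp13 was not tested. In WT it was at 10549 to 12002 CPM in the libraries numbered 1 to 4 and at 12380 to 12835 in those numbered 5 to 7. In KO it was at 10911 to 12935 and at 12824 to 13477 CPM. Mmp13 was at 21.3 to 26.0 and 14.3 to 19.1 CPM in these WT sets, and at 16.9 to 29.1 and 13.8 to 15.4 in KO. The permutations were within genotype only, so the part of these library sets was not tested.

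Both genes belong to a cluster of 9 MMP genes on chromosome 9 of GRCm38 that spans 0.427 Mb from 7272514 to 7699585. In genome order, Mmp13 was at 7.99 ± 1.60 CPM per kb in WT, Mmp12 at 54.9 ± 15.9, Mmp3 at 0.0589 ± 0.0391, Mmp10 at 0.0556 ± 0.0414, Mmp8 at 0.628 ± 0.213 and Mmp27 at 1.53 ± 0.386 (SD, n = 7). The stromelysins Mmp3 and Mmp10 thus held only 56 and 48 counts over all libraries, next to 241121 counts of Mmp12. The other genes of the cluster, Mmp1b, Mmp20 and Mmp7, had at most 3 counts in all and were not members.

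**Figure D3:**
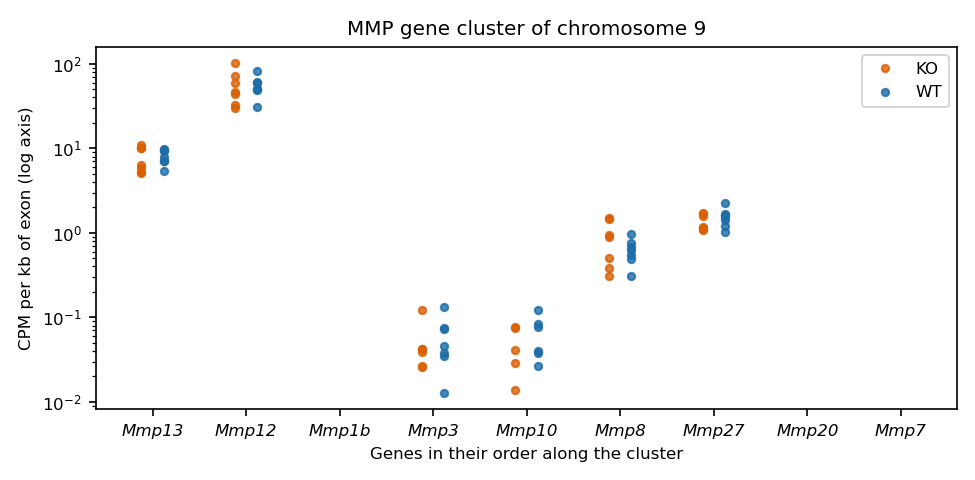
Level per length (CPM per kb of exon, log axis) of the genes of the MMP cluster on chromosome 9, in their order along the chromosome, with 1 point per library (KO orange, WT blue). Mmp12 and Mmp13 stand at 54.9 and 7.99 CPM per kb in WT and Mmp3 and Mmp10 near 0.06, libraries with no count are not drawn, and Mmp1b, Mmp20 and Mmp7 had too few counts to be members.

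The promoters of the pair that moved together and of their low neighbours are shown because they hold the same short motifs. RefSeq (GRCm38.p6) lists promoters, from 250 bases before to 50 bases after a start, for 33 of the 56 members. TGAGTCA or TGACTCA, which read as each other on the opposite strand and are the letters bound by AP-1 factors, were found in 5.202% of all 32851 promoters, TATAAA on the strand of the gene in 8.32%, and both in 0.624%. Among the members, 4 held both in 1 promoter, and all 4 lie in the cluster. They are printed from 5′ to 3′ on the plus strand with both motifs in capitals, for Mmp12 at chr9:7347124-7347423, the second of its 2 listed starts, for Mmp13 at chr9:7272264-7272563, for Mmp3 at chr9:7445572-7445871 and for Mmp10 at chr9:7502092-7502391.
Mmp12: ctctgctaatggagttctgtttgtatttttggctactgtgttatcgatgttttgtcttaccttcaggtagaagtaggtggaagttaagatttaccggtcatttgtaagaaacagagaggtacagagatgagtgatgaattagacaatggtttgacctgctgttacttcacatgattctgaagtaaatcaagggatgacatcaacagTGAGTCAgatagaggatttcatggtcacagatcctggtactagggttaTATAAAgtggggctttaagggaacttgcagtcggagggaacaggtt
Mmp13: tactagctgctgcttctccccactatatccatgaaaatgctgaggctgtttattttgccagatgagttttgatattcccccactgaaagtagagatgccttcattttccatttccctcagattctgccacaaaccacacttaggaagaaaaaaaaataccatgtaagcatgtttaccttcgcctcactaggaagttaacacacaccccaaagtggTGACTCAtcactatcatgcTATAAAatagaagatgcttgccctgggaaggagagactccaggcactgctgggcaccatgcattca
Mmp3: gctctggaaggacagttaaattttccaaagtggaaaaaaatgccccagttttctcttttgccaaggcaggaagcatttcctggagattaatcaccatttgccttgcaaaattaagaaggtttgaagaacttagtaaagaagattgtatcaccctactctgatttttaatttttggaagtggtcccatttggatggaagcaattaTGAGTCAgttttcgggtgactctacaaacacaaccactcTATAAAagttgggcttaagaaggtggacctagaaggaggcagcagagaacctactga
Mmp10: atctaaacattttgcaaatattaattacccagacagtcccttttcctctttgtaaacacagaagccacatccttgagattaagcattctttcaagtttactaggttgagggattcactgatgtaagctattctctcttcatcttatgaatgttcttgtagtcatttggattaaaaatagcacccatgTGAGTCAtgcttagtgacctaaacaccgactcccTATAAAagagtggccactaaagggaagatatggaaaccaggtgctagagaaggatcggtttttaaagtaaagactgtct

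The AP-1 letters began 44 bases before the listed start of Mmp12, 35 before that of Mmp13, 46 before that of Mmp3 and 63 before that of Mmp10. Counted in the same way, TATAAA began at 16 for Mmp13, 7 for Mmp3, 29 for Mmp10 and −4 for Mmp12, where it lies after the listed start. The listed promoters of Mmp8 and Mmp27, in the same cluster, and the first listed promoter of Mmp12 held neither motif. The letters were thus present both in the most abundant MMP gene of the members and in genes with hardly a count, and a match describes the sequence only.

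Mmp9, gelatinase B, and Mmp8, the neutrophil collagenase, had the highest positive fold changes of the tested members. Mmp9 was at 1.38, 3.07 and 13.1 CPM in KO and at 1.14, 2.19 and 7.31 CPM in WT. KO replicate 3 stood far above the other KO libraries and WT replicate 2 far above the other WT libraries. For Mmp9 the log2 fold change was 0.65 (SE 0.467, adjusted p = 0.943 in edgeR; exact permutation p = 0.312), with values from 0.14 (without KO replicate 3) to 1.04 (without WT replicate 2) when single libraries were left out.

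Mmp8 was at 0.740, 2.14 and 3.63 CPM in KO and at 0.746, 1.504 and 2.38 CPM in WT, with KO replicates 3 and 7 above all other libraries and WT replicate 2 the highest of its group. For Mmp8 it was 0.44 (SE 0.352, adjusted p = 0.943 in edgeR; exact permutation p = 0.477), and 0.25 without KO replicate 3. The same 3 libraries had the highest summed level of the 10 neutrophil markers, with 23.6 CPM in KO replicate 3, 16.96 in KO replicate 7 and 15.1 in WT replicate 2, against 0.351 to 7.33 in the other libraries.

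Over the 14 libraries the neutrophil marker level went with Mmp9 at r = 0.744 (permutation p = 0.00275, adjusted p = 0.00412) and rho = 0.749 (permutation p = 0.00372, adjusted p = 0.00638), and with Mmp8 at r = 0.73 (permutation p = 0.00083, adjusted p = 0.00166) and rho = 0.618 (permutation p = 0.0156, adjusted p = 0.0234). Without the 2 libraries farthest from the median marker level, r was 0.76 for Mmp9 and 0.534 for Mmp8. Of the neutrophil markers, S100a8 and S100a9 had means of 1.65 and 2.52 CPM, and Ngp, Ltf, Cxcr2, Retnlg and Camp had means of 0.683, 0.669, 0.498, 0.243 and 0.147 CPM, while Ly6g, Mpo and Elane, which define neutrophils and their precursors, were near 0 with at most 0.0461 CPM in any library. Without these 3 libraries, the log2 fold change was 0.31 (SE 0.290) for Mmp9 and 0.08 (SE 0.318) for Mmp8.

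**Figure D4:**
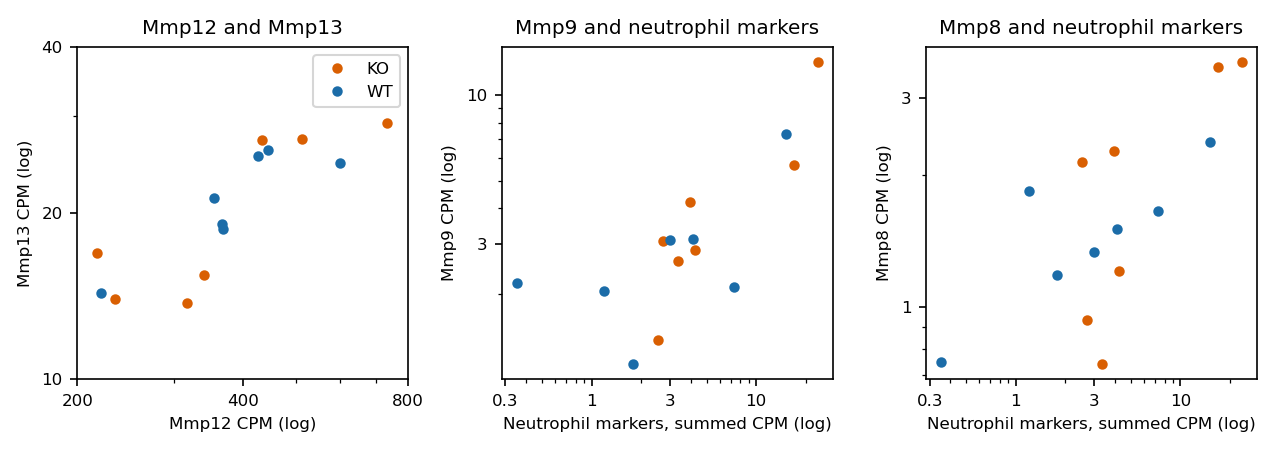
Left, Mmp13 against Mmp12 in CPM; centre and right, Mmp9 and Mmp8 in CPM against the summed CPM of 10 neutrophil markers, on log axes with 1 point per library (KO orange, WT blue). Mmp12 and Mmp13 rise together (r = 0.85), and the libraries with over 15 CPM of neutrophil markers hold the highest Mmp9 values.

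A group of low members followed the astrocyte markers. The summed level of 10 astrocyte markers, Gfap, Aqp4 and Slc1a3 among them, lay between 33.9 and 153 CPM in KO and between 38.9 and 294 CPM in WT, with means of 81.1 ± 45.1 and 132 ± 90.8 CPM (SD, n = 7), a difference within the spread (two-sided exact permutation test on the log2 level, p = 0.247). Of the 40 tested members, 6 (15%) had an r above 0.8 with this level, against 6.83% of all tested genes, and the median r was 0.427 for the members and −0.0702 for all genes. After adjustment over the 40 relations, 11 members had a permutation p under 0.05 by r and 10 by rho, and all 11 had a positive r. The share of all tested genes at this permutation threshold was not computed, so these counts have no background beside them.

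The 6 members were Mmp15, a membrane-type MMP, with r = 0.953 (rho = 0.96, both permutation p = 2e-05, adjusted p = 0.00016 and 0.0002), the aggrecanase Adamts5 with r = 0.932 (rho = 0.925, permutation p = 1e-05 and 4e-05, adjusted p = 0.000133 and 0.00032), and Adam23, a neural ADAM without protease activity, with r = 0.92 (rho = 0.895, both permutation p = 2e-05, adjusted p = 0.00016 and 0.0002). The others were the proteoglycanase Adamts9 with r = 0.912 (rho = 0.952, both permutation p = 1e-05, adjusted p = 0.000133 and 0.0002), Adam12, a sheddase of mesenchymal cells, with r = 0.89 (rho = 0.974, both permutation p = 1e-05, adjusted p = 0.000133 and 0.0002) and the membrane-anchored Mmp17 with r = 0.831 (rho = 0.846, permutation p = 0.00026 and 0.00044, adjusted p = 0.00149 and 0.00293). The smallest p that these permutations can give is 1e-05. Within each genotype alone, r was at least 0.841 for all 6, and without the 2 libraries farthest from the median astrocyte level it lay between 0.72 and 0.941.

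The libraries showed this plainly for Mmp15, which was at 1.12, 1.58 and 4.19 CPM in KO and at 1.10, 2.49 and 9.05 CPM in WT. WT replicate 4, with the most astrocyte transcripts, had the most Mmp15, and WT replicate 5, with the least of its group, had the lowest value. Adamts9 was at 0.148, 0.759 and 2.602 CPM in KO and at 0.307, 1.71 and 3.95 CPM in WT, and Adamts5 at 0.0987, 0.332 and 1.05 CPM in KO and at 0.154, 0.889 and 1.58 CPM in WT. WT replicate 4 was the highest library for both, and KO replicate 5, which had the lowest astrocyte level of all, was the lowest.

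Adam12 had the widest spread of the tested members, at 0.173, 1.49 and 3.93 CPM in KO and at 0.571, 2.05 and 5.70 CPM in WT, a 33.0-fold range over the libraries. Adam23 was at 0.715, 1.35 and 2.13 CPM in KO and at 0.636, 2.47 and 3.71 CPM in WT, and Mmp17 at 0.0740, 0.212 and 0.816 CPM in KO and at 0.208, 0.467 and 0.957 CPM in WT. The KO and WT ranges overlapped for each of them. All 6 were low, between 0.0716 and 0.672 CPM per kb in WT.

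All 6 had a lower mean in KO, with log2 fold changes between −0.71 and −0.51 and none past the test (adjusted p = 0.943 for each in edgeR). They were chosen by their r with the astrocyte level, which itself had the lower mean in KO. Their shared direction, and its change in the covariate fit below, are therefore not separate results. Single libraries moved these values, and without WT replicate 4 they were −0.21 for Mmp15, −0.23 for Adam12, −0.44 for Adamts9 and −0.43 for Mmp17. Without KO replicate 1, Mmp17 was at −1.17 and Adam12 at −0.77. In the fit with the astrocyte level as a covariate, the log2 fold change was 0.11 (SE 0.154) for Mmp15, 0.02 (SE 0.239) for Adamts5, −0.03 (SE 0.190) for Adam23, −0.07 (SE 0.268) for Adamts9, 0.17 (SE 0.265) for Adam12 and −0.18 (SE 0.329) for Mmp17. The astrocyte level moved with other marker lists, with r = 0.896 for the oligodendrocyte lineage (rho = 0.899, both permutation p = 3e-05, both adjusted p = 0.00036), r = 0.843 for fibroblasts and mural cells (rho = 0.763, permutation p = 3e-04 and 0.00244, adjusted p = 0.0009 and 0.00586) and r = 0.758 for neurons (rho = 0.745, permutation p = 0.00225 and 0.00336, adjusted p = 0.00386 and 0.00638). Without the 2 libraries farthest from the median astrocyte level, these r were 0.882, 0.742 and 0.651. Which of these cells carried the 6 transcripts cannot be told apart in these libraries.

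**Figure D5:**
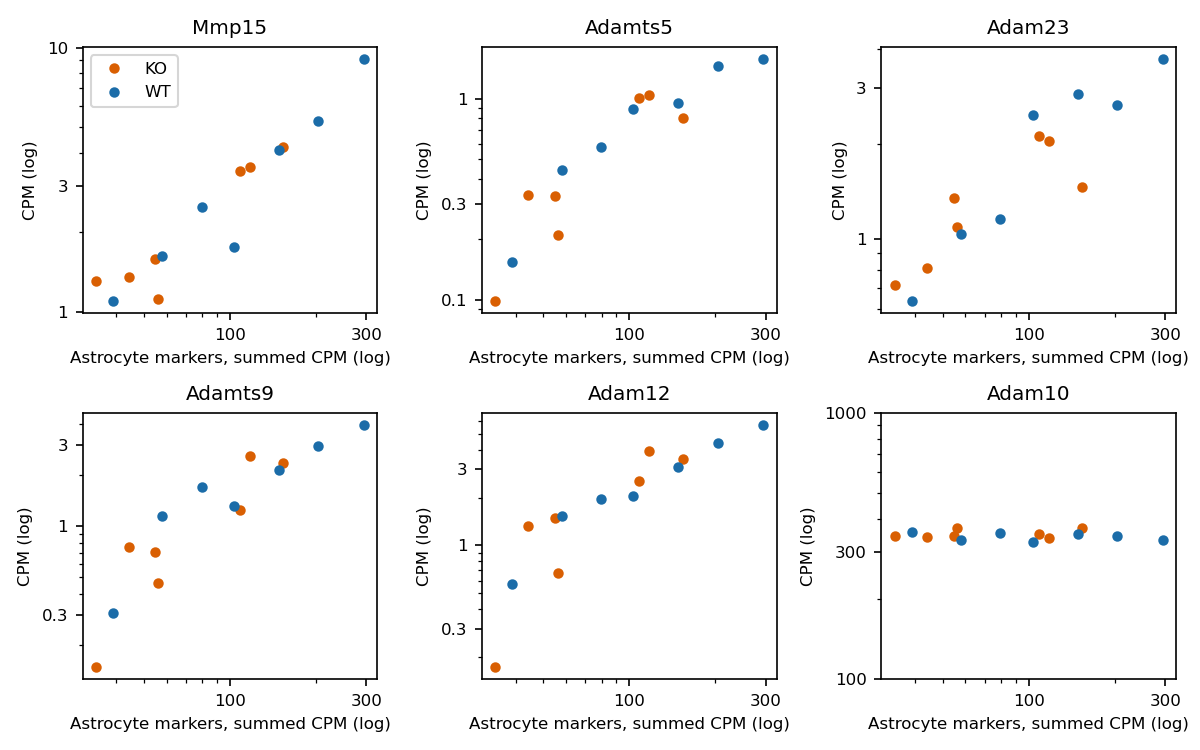
CPM of the 5 members with the highest correlation and of Adam10 against the summed CPM of 10 astrocyte markers, on log axes with 1 point per library (KO orange, WT blue). Mmp15, Adamts5, Adam23, Adamts9 and Adam12 climb with the astrocyte markers in both genotypes, and Adam10 stays level (r = −0.12).

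The abundant members did not follow this pattern so closely. Over the 6 with the highest levels, r with the astrocyte level lay between −0.134 for Adam9 and 0.511 for Adam8, and none passed after adjustment. The lowest r were those of Adam1a with −0.379, Adam4 with −0.326, Adam33 with −0.189, Mmp27 with −0.178 and Mmp9 with −0.157, and none of these passed either. Adam1a, known from sperm, shares 63.7% of its exon bases with an overlapping gene on the same strand, so its counts are uncertain. Adam4, another testis gene, was at 0.189, 0.281 and 0.688 CPM in KO and at 0.0222, 0.288 and 0.484 CPM in WT.

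Among the other ADAMTS proteoglycanases, Adamts1 was at 77.3, 93.9 and 120 CPM in KO and at 80.2, 98.5 and 114 CPM in WT, with overlapping ranges and a log2 fold change of −0.04 (SE 0.0986). Adamts4, an aggrecanase, was far lower, at 0.396, 0.469 and 1.13 CPM in KO and at 0.527, 0.889 and 1.17 CPM in WT, with a log2 fold change of −0.33 (SE 0.280), or −0.51 without KO replicate 3. Adamts15 was at 0.148, 0.522 and 1.94 CPM in KO and at 0.198, 1.30 and 2.25 CPM in WT, and its log2 fold change was −0.69 (SE 0.592), which was −1.22 without KO replicate 1 and −0.42 without WT replicate 4. The mean log2 CPM of Adamts15 differed between KO and WT by −1.07 in the libraries numbered 1 to 4 and by −0.09 in those numbered 5 to 7. Adamts10 was steady, at 88.8, 95.4 and 98.1 CPM in KO and at 81.4, 90.1 and 102 CPM in WT, with a log2 fold change of 0.06 (SE 0.0416).

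Adam33 was at 18.9, 22.3 and 36.4 CPM in KO and at 16.5, 18.5 and 32.1 CPM in WT. KO replicate 1 and WT replicate 1 stood apart from all other libraries, and the remaining KO and WT libraries overlapped. Adam33 had a log2 fold change of 0.20 (SE 0.164, adjusted p = 0.943 in edgeR; exact permutation p = 0.294), which was 0.06 without KO replicate 1 and 0.35 without WT replicate 1. The mean log2 CPM of Adam33 was higher in KO by 0.21 in the libraries numbered 1 to 4 and by 0.20 in those numbered 5 to 7. Mmp27, in the cluster of chromosome 9, was at 2.37, 2.56 and 3.80 CPM in KO and at 2.27, 3.37 and 4.94 CPM in WT, with a log2 fold change of −0.17 (SE 0.169), or −0.06 without WT replicate 1.

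The 16 members left out of the test had between 13 counts (Adam30) and 141 counts (Adamts19) over all libraries. They were 3 MMPs, 6 ADAMs of the reproductive tract and 7 ADAMTS genes. The most uneven of them was Adamts3, a procollagen N-proteinase, with 26 counts in KO and 57 in WT. With 0 to 25 counts per library they did not pass the filter on low genes, and a difference in them would be hard to see at this depth.

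Genes that act on these enzymes or are acted on by them were taken from lists of the pathway, and 0 of their 49 tested genes had an adjusted p under 0.05. Of the 5 inhibitors other than Timp2, 0 were higher and 5 lower in KO, and the smallest p was that of A2m, the plasma proteinase trap, at 3.35 ± 3.04 CPM in KO and 7.24 ± 6.45 CPM in WT (log2 fold change −1.11, adjusted p = 0.943 in edgeR). All 5 inhibitors went with the astrocyte marker level, with r from 0.649 for Reck to 0.979 for A2m, and 4 of them, Timp1, Timp3 and Timp4 included, had an r above 0.8, against 6.83% of all genes. The part of the astrocyte transcripts in the values of these inhibitors was not tested. Of the 8 tested genes that activate the proenzymes or control that step, 1 was higher and 7 lower, with the smallest p for the plasminogen activator Plat (log2 fold change −0.51, adjusted p = 0.943 in edgeR). Plat and the proprotein convertase Pcsk6 were the 2 genes of this list with an r above 0.8 with the astrocyte level (0.91 and 0.972).

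Of the 8 tested partners of ADAM10 and ADAM17, 1 was higher and 7 lower in KO, and 2 had an unadjusted p under 0.05, 1 in each direction, against 3.37% of all genes. Rhbdf2, which carries ADAM17 to the cell surface, was at 86.0 ± 4.80 CPM in KO and 81.0 ± 2.33 CPM in WT (log2 fold change 0.09, exact permutation p = 0.0245, adjusted p = 0.943 in edgeR). The other was the tetraspanin Tspan17, at 16.6 ± 1.49 CPM in KO and 18.2 ± 1.02 CPM in WT (log2 fold change −0.14, exact permutation p = 0.0350, adjusted p = 0.943 in edgeR), which was named after its value was seen. Of the 19 tested surface proteins that are shed, 14 were higher and 5 lower in KO, and the smallest p was that of the Notch ligand Dll1 (log2 fold change 0.32, exact permutation p = 0.0210, adjusted p = 0.943 in edgeR). Of the 9 tested matrix substrates, 2 were higher and 7 lower, with the smallest p for elastin, Eln, at 2.98 ± 0.785 CPM in KO and 4.69 ± 1.89 CPM in WT (log2 fold change −0.66, exact permutation p = 0.0152, adjusted p = 0.943 in edgeR). The proteoglycans Vcan, Bcan and Ncan and the collagen chain Col1a1, all lower in KO, were the 4 matrix substrates with an r above 0.8 with the astrocyte level (0.981, 0.965, 0.953 and 0.82). Among the partners, Rhbdf1 and Tspan15 had such an r (0.91 and 0.844), and among the shed proteins Cx3cl1 and Hbegf (0.939 and 0.927). Each of these was lower in KO. The r was 0.684 for Tspan17 and 0.669 for Eln, but −0.334 for Rhbdf2 and −0.277 for Dll1. The part of the astrocyte transcripts in these values was not tested.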

How the data were processed

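RNA of 14 primary microglia cultures was sequenced by the authors as paired reads. The submitters' processing notes name Trimmomatic 0.36, STAR 2.5.2b, featureCounts of Subread 1.5.2, DESeq2 and GRCm38. The file the authors deposited holds, for each Ensembl gene, a raw read count in 1 column per library, not normalized. Strand setting and the batch of each library, a covariate in the study's own model, are not given in the sources used here, so batch could not be used. Groups and replicate numbers came from the sample titles. Libraries are separate pools of pups. Of 49315 genes, 49056 were matched to GENCODE M21 (GRCm38), which gave symbols, positions and exon lengths (the union of all exons).

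Depth was 38875344 to 48070236 counted reads per library, which sets the counting error of low genes. edgeR 4.0.16 in R 4.3.3 was used for the filter on low genes (filterByExpr with at least 10 counts, and 15 in total), for TMM scaling and for the quasi-likelihood test, KO over WT, two-sided, threshold adjusted p 0.05 (Benjamini-Hochberg over all 15700 tested genes). SE is the log2 fold change divided by the root of its F, and log2 CPM used a prior count of 1. Marker levels and single members were compared by exact permutation over 3432 splits, and correlations of log2 values by 100000 permutations within genotype (random seed 1), in Python 3.11.15 with numpy 2.4.6. The scripts were tested on simulated counts.

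The text names up to 10 tested members with the smallest p and 10 with the highest WT level per length, the 5 with the widest range, the 5 highest and 5 lowest in astrocyte correlation, Adam10, Adam17, Mmp9, Mmp12, Mmp13, Adam8, Adamts1, Adamts4 and Adamts5, tested members within 20 Mb of Timp2, and the gene with the smallest p of each pathway list. Members and lists were chosen with earlier results of these data known. Adam30, Adam28, Adamts19 and Adamts3, and the remaining genes of the MMP cluster, were named after their values were seen, as were the neutrophil and microglia marker relations. The alternatives were other size factors, no filter, DESeq2 1.42.0, a replicate block, another gene length and leaving out each library.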

Additional observations from a re-analysis of the deposited data

Results flagged for a closer look

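In each genotype, the highest and the lowest library of each named member was compared with its nearest neighbour (Dixon's test at the 95% level), over 48 groups of 7 libraries, and 7 groups had a library that stood apart. The test is set to mark about 1 in 20 groups of normally distributed values. It was run on CPM, and some named members, Adamts15 among them, were chosen for their wide range. The 7 groups can therefore not be read against that share. Adam33 stood apart at 36.4 CPM in KO replicate 1, with 23.2 CPM in the next KO library, and at 32.1 CPM in WT replicate 1, with 19.4 CPM in the next WT library. Mmp9 stood apart at 13.1 CPM in KO replicate 3, with 5.68 CPM in the next, and at 7.31 CPM in WT replicate 2, with 3.11 CPM in the next, and both libraries were among the 3 with the highest neutrophil marker level. Adam8 was at 1270 CPM in KO replicate 7, above 1011 CPM in the next KO library. KO replicate 1 also stood apart for Mmp17 with 0.816 CPM, above 0.394, and for Adamts15 with 1.94 CPM, above 0.782.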

How the results depend on the processing

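No member had an adjusted p under 0.05 in any of the 23 other settings, and the smallest was 0.191, for Adam33 in DESeq2 with the replicate block. The number of members with an unadjusted p under 0.05, 0 as reported, was from 0 to 3 when 1 library was left out (3 without KO replicate 1), and 1 both with the astrocyte covariate (Adamts10) and without the 3 libraries with the most neutrophil transcripts (Adam8), fits chosen after seeing the data. With the replicate block it was 2 in edgeR (Adam33 and Adam11) and 2 in DESeq2 (the same 2). Adam33 was higher in KO in 7 of 7 same-numbered comparisons, the most of the 40 tested members, and Adamts10 and Adamts14 followed with 6 of 7. Same-numbered KO and WT libraries deviated together with correlations from −0.196 to 0.743, of which 3 of 7 were above 0.1, so the numbers were not taken as a pairing. With libraries numbered 5 to 7 against 1 to 4 as a term, also chosen after seeing the data, the number of members was 0. Of all genes, 662 of 15700 had such a p in that fit, and the smallest adjusted p of a member in edgeR was 0.891. Over all genes, 3 passed as reported, 15 in DESeq2 and 26 in DESeq2 with the replicate block, against 3 to 4 without 1 library. The median log2 fold change of the members lay between −0.09 and −0.01 without 1 library. The log2 fold change of Mmp12, 0.00078 as reported, changed sign with RLE factors (−0.0032), upper-quartile factors (−0.010), no filter (−0.0062), DESeq2 (−0.0031), the replicate block in edgeR (−0.061) and in DESeq2 (−0.064), the term for libraries 5 to 7 (−0.014), and lay between −0.22 and 0.13 without 1 library. Sign changes were also seen without 1 library for Adamts1 (−0.10 to 0.0084) and Mmp13 (−0.16 to 0.021), with the astrocyte covariate for Mmp15 (0.11), Adamts5 (0.021), Adam15 (0.0062), Adamts1 (0.027), Mmp13 (0.037) and Adam12 (0.17), and without the 3 libraries for Adamts1 (0.027) and Mmp13 (0.13). The other named members kept their direction. The astrocyte correlation passed for 6 members in place of 11 without the 2 farthest libraries, where fewer samples were left. With the longest transcript as the length, the 10 highest members were the same 10 in another order, with Mmp12 second and Adamts10 above Adamts1. Depth limits the low members, and 16 of the 56 did not pass the filter on low genes.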

Other observations

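Neighbouring members often differed widely in level. On chromosome 8, Adam9 was at 80.02 ± 5.06 CPM per kb in WT (SD, n = 7), while Adam3, Adam5, Adam18 and Adam32 in the same cluster of 5 genes, which spans 0.415 Mb, were at 0.644, 0.0292, 0.0272 and 0.0301. On chromosome 16, Adamts1 was at 18.5 ± 2.15 CPM per kb and Adamts5, which starts within the same 0.108 Mb, at 0.0802 ± 0.0485. Over the 40 tested members the WT level per length spanned 4045-fold. Biological variation between libraries of a genotype (edgeR's coefficient) was 0.254 at the median tested member and 0.109 at the median gene. It was between 0.0460 and 0.0975 for the 6 most abundant members without Mmp12. These medians are not matched for level, and edgeR's trend of the coefficient with level was 0.0818 at Adam8 and 0.337 at the low Mmp17. Of the 40 tested members, 22 lay above the trend for their level.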
